A study of Mus musculus with 2 samples.

Results

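The 7 genes that encode cyclin-dependent kinase inhibitors in the mouse were followed through 2 single-cell RNA libraries of the embryonic upper face at E11.5. They were found by symbol in both gene tables, and all 7 (Cdkn1a, Cdkn1b, Cdkn1c, Cdkn2a, Cdkn2b, Cdkn2c and Cdkn2d) were present among the 27998 genes that the tables share. The Crect lacZ library came from embryos with the genotype Crect; ROSA26-lacZ, and the other came from wild-type embryos. Both are labelled C57BL/6J, and both hold dissected lambdoid junction, the area in which the nasal and maxillary prominences of the face meet. Each library pooled tissue of 4 to 5 embryos, so no value belongs to a single embryo. Crect is a Cre transgene that acts in surface ectoderm, and ROSA26-lacZ is a reporter, so neither is aimed at any of the 7 genes.

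Cyclin-dependent kinase inhibitors bind the kinases that drive the cell cycle and hold them inactive. The Ink4 proteins bind CDK4 and CDK6 and keep them from their D-type cyclins, so the retinoblastoma protein stays unphosphorylated and E2F target genes stay off. They are p16Ink4a from Cdkn2a, p15Ink4b from Cdkn2b, p18Ink4c from Cdkn2c and p19Ink4d from Cdkn2d. The Cip/Kip proteins p21 from Cdkn1a, p27 from Cdkn1b and p57 from Cdkn1c bind several cyclin-kinase complexes. Cdkn2a also encodes p19Arf in another reading frame, a protein that stabilises p53, and p53 in turn activates Cdkn1a. Cdkn1a and Cdkn2a transcripts are known from signalling centres of mouse embryos such as the apical ectodermal ridge of the limb, and Cdkn1c is an imprinted gene expressed from the maternal allele.

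On the mouse genome (GRCm38, GENCODE vM21), Cdkn2a lies on the minus strand of chromosome 4 at chr4:89274471-89294653. Cdkn2b is the next gene on that strand, at chr4:89306299-89311039, and 11645 bases with 0 annotated genes lie between them. The 2 annotated Cdkn2a transcripts start 12461 bases apart and share 2 of their 3 exons, the 3′ ones. The libraries count RNA 3′ ends, so a Cdkn2a UMI cannot be given to p16Ink4a or to p19Arf. Cdkn2c is also on chromosome 4 (chr4:109660876-109667189), Cdkn1a on chromosome 17 (chr17:29090976-29100727), Cdkn1b on chromosome 6 (chr6:134920401-134925513), Cdkn1c on chromosome 7 (chr7:143458339-143461050) and Cdkn2d on chromosome 9 (chr9:21288410-21291407). Genes on the opposite strand overlap Cdkn1c (Gm44732) and Cdkn1a (AC167363.2), in neither case at the 3′ end.

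Promoters are shown for Cdkn2a, Cdkn2b and Cdkn1a, the 3 genes whose transcripts were concentrated in the ectoderm. They are RefSeq windows (GRCm38.p6) of 250 bases before and 50 bases after each start, and 9 such windows were found for 6 of the 7 genes. Cdkn1c had none. Capitals mark matches, on either strand, to 3 motifs that do not overlap in these windows. They are CATG repeated after 6 bases of any kind, the paired cores of a p53 element, in 0.712% of 32851 promoters, TTTCCCGC, an E2F element, in 1.07%, and GGGCGG, the GC box bound by Sp1, in 35.7%.

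Cdkn2a, upstream start (the Arf transcript), minus strand, chr4:89294570-89294869: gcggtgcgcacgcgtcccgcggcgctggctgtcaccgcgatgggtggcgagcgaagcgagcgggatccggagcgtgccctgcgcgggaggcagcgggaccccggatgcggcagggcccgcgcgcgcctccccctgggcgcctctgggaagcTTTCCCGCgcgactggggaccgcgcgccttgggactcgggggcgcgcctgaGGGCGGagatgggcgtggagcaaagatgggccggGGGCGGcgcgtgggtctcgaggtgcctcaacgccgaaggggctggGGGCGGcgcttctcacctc
Cdkn2a, downstream start (the Ink4a transcript), minus strand, chr4:89282143-89282442: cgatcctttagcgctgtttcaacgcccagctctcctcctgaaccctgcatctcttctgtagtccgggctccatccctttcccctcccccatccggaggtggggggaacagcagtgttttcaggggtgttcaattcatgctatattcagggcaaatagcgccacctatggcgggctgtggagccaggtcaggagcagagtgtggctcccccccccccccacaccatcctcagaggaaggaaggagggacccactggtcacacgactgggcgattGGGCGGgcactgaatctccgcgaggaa
Cdkn2b, minus strand, chr4:89310983-89311282: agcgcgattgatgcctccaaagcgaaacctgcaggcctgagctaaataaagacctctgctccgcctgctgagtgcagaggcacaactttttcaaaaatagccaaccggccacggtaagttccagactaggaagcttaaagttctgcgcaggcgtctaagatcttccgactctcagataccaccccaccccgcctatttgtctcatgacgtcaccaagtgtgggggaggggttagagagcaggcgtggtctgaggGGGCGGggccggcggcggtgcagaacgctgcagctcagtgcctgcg
Cdkn1a, first of its 2 windows, plus strand, chr17:29090729-29091028: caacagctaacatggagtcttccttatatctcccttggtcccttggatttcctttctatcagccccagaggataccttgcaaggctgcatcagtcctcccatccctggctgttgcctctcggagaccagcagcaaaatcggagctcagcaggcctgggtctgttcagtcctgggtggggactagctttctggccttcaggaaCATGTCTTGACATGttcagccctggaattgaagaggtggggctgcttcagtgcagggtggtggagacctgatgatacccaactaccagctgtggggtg

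The upstream Cdkn2a window held 45 CpG dinucleotides, a number reached by only 1.93% of all promoters, whose median was 7. The downstream Cdkn2a window held 12 and the Cdkn2b window 18. Counted from 0 at the first transcribed base, the E2F letters stood at position -99 of the upstream Cdkn2a window. The p53 letters stood at position -48 of the first Cdkn1a window, which held 2 CpG dinucleotides. The second Cdkn1a window, chr17:29093519-29093818, is not shown and held 0 matches to the p53 letters, 2 GC boxes and 23 CpG dinucleotides. The GC box was found in 7 of the 9 windows. These are letter matches only, and no binding was measured.

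The files held 6894 cell barcodes in the Crect lacZ library and 7966 in the wild-type library, and 6318 and 7739 were analysed after filters on mitochondrial reads and doublets. Their median depth was 17274.5 and 13964 UMIs (unique molecular identifiers, 1 for each captured RNA molecule). The 2 libraries shared 76 barcode sequences. Clusters were named from marker genes, with the 7 inhibitors and all cell cycle genes held out of the clustering. Ectoderm-like cells numbered 668 in the Crect lacZ library and 965 in the wild-type library, and mesenchyme-like cells 5252 and 6161. The 8 ectoderm markers summed to 1781 and 1568.5 counts per 1000000 UMIs (CPM) in ectoderm-like cells, against 39.8 and 31.0 CPM in mesenchyme-like cells. The 6 mesenchyme markers summed to 120 and 111 CPM in ectoderm-like cells, against 1528 and 1415.5 CPM in mesenchyme-like cells. Wherever 2 values stand side by side for a cell group, the Crect lacZ library comes first and the wild-type library second. Each class comparison rests on sums in these 2 libraries as replicates, so its p-values cover no spread beyond these 2 pools. That spread was estimated largely or wholly from all genes together, and not from each gene alone.

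The 7 genes spanned a wide range of abundance. Cdkn1c gave 61121 and 74559 UMIs and was seen in 97.0% and 97.5% of the cells that passed the mitochondrial filter. Cdkn2d gave 4183 and 5314 UMIs, Cdkn1b 1777 and 2510, and Cdkn1a 1262 and 1727. Cdkn2c gave 370 and 555 UMIs, Cdkn2b 224 and 274, and Cdkn2a 120 and 182. Cdkn2a was seen in 0.763% and 1.02% of cells. The sparse genes were also the most unevenly placed. Ectoderm-like cells held 91.7% and 92.3% of all Cdkn2a UMIs, 85.3% and 94.2% of Cdkn2b UMIs, and 69.7% and 77.9% of Cdkn1a UMIs. Of Cdkn1c UMIs they held 10.3% and 19.6%, and of Cdkn2c UMIs 7.30% and 5.95%.

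Cdkn2a and Cdkn2b were genes of the ectoderm in this tissue, and Cdkn1a was high in ectoderm, neurons and macrophages. Cdkn2a averaged 9.40 ± 0.435 CPM in ectoderm-like cells and 0.133 ± 0.0369 CPM in mesenchyme-like cells (SD, n = 2 libraries). It read 9.09 and 9.71 CPM in ectoderm-like cells (Poisson 95% intervals 7.47 to 11.0 and 8.30 to 11.3), against 0.107 and 0.159 CPM in mesenchyme-like cells. No Cdkn2a UMI was found in endothelium-like, erythroid-like, macrophage-like, glia-like or neuron-like cells, where 3 counts would have been between 0.432 and 5.13 CPM. Cdkn2b read 15.8 and 14.9 CPM in ectoderm-like cells, against 0.321 and 0.148 CPM in mesenchyme-like cells. Cdkn1a read 72.7 and 77.8 CPM in ectoderm-like cells, against 1.83 and 1.98 CPM in mesenchyme-like cells. In all 3 the groups were far apart in both libraries. Cdkn1a was as high in the 79 and 31 neuron-like cells, at 83.8 and 107 CPM, and read 41.4 and 69.2 CPM in macrophage-like cells.

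The quasi-likelihood test of edgeR was run on 15125 genes, with p-values adjusted by Benjamini-Hochberg. By this edgeR test Cdkn2a was 71.1-fold higher in ectoderm than in mesenchyme (log2 change 6.15, SE 0.293, adjusted p = 4.73e-15). Cdkn2b was 66.3-fold higher (log2 change 6.05, SE 0.24, adjusted p = 1.17e-16) and Cdkn1a 40.2-fold higher (log2 change 5.33, SE 0.0968, adjusted p = 2.31e-23). Genes were called where the adjusted p was below 0.05 and the change at least 2-fold. Of the 7 members 3 were called higher and 0 lower, while of all genes 13.5% were called higher, 9.06% lower and 22.6% in either direction. The p threshold alone was passed by 54.4% of genes. Cdkn2d (log2 change -0.35, adjusted p = 0.000851) and Cdkn2c (log2 change -0.58, adjusted p = 0.0463) passed the p threshold of the same edgeR test but not the fold. Cdkn1b (log2 change -0.05, adjusted p = 0.667) and Cdkn1c (log2 change 0.19, adjusted p = 0.116) did not pass. The 3 differences remained where only cells without Mki67 and Top2a were compared (log2 changes between 5.11 and 7.40) and where only cells with both were compared (5.31 to 5.85).

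The low mesenchymal reading of these genes was about as large as that of ectoderm markers. The 8 ectoderm markers read in mesenchyme-like cells at a median of 2.27% and 2.16% of their ectodermal level. Cdkn1a read at 2.52% and 2.55%, Cdkn2a at 1.18% and 1.64%, and Cdkn2b at 2.04% and 0.993%. After each cell was thinned to 5000 UMIs, Cdkn2a was seen in 2.58% and 2.94% of ectoderm-like cells (5.39% and 6.53% unthinned), against 0.0766% and 0.0490% of mesenchyme-like cells. Median depths were 16385 and 14983 UMIs in ectoderm-like cells and 17243 and 13431 UMIs in mesenchyme-like cells. Cdkn1a was seen in 20.6% and 24.0% of thinned ectoderm-like cells (42.4% and 42.8% unthinned), against 0.958% and 0.849% of thinned mesenchyme-like cells. The mesenchymal shares are low and are not read as expression. Free RNA was not measured, and its part in them was not tested.

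**Figure D1:**
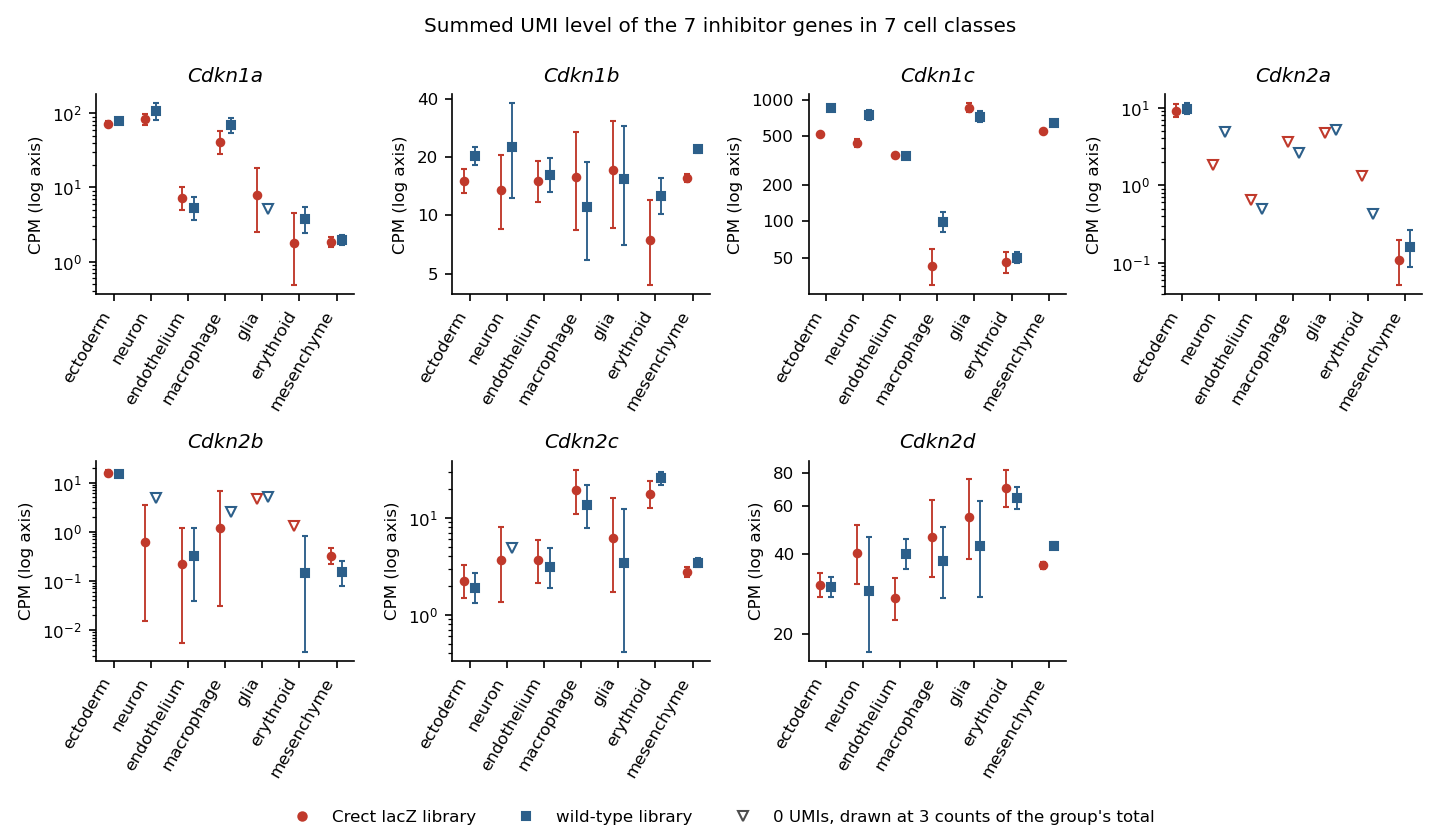
Level of each inhibitor gene (CPM, log axis) in 7 cell classes, with 1 point per library and exact Poisson 95% intervals, which cover counting error only. Open triangles mark classes with 0 UMIs and stand at 3 counts of the class total. Cdkn2a and Cdkn2b stand out in ectoderm, where they read between 9.09 and 15.8 CPM, while Cdkn1b stays between 7.47 and 22.6 CPM in all 7 classes.

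Other genes of the pathway were described by lists chosen with earlier results of these data known. Of 24 genes of G1/S control, 3 were higher and 1 lower in ectoderm than in mesenchyme, with a median log2 change of -0.17 against -0.03 for all genes. Ccnd2, a D-type cyclin that Ink4 proteins keep from its kinase, was 3.55-fold higher, Cdk6, a direct Ink4 target, 2.03-fold higher, and Ccne1, cyclin E1, 2.01-fold lower. Of 16 tested p53 target genes, 3 were higher and 1 lower, with a median of 0.42. Perp, a desmosome protein, was 69.8-fold higher, and Phlda3, an inhibitor of Akt, 2.48-fold higher. Pmaip1, which encodes the pro-apoptotic protein Noxa, was 5.36-fold lower. Of 20 genes known to act on the Ink4/Arf locus, 1 was higher and 4 lower, with a median of -0.22. They included Tbx2 (9.37-fold lower) and Tbx3 (5.87-fold lower), T-box repressors of Cdkn2a and Cdkn1a, and Id2 (2.41-fold lower). The part of these genes in the Cdkn2a and Cdkn1a differences was not tested. None of 41 S-phase genes and none of 50 G2/M genes was called by this edgeR test, although 35 and 42 of them were lower by its p threshold alone, as were 27.6% of all genes. A list of 20 dissociation and stress genes had 6 higher and 3 lower, Hspb1 (13.3-fold higher) and Gadd45g (10.9-fold higher) among them, and their part in the Cdkn1a difference was not tested.

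Within the ectoderm, Cdkn2a and Cdkn2b were concentrated in a few sub-clusters. The highest Cdkn2a level, 41.4 and 70.1 CPM, was in a sub-cluster of 87 and 79 cells led by Mgp and Gad2. There Cdkn2b read 54.1 and 30.7 CPM and Cdkn1a 156.5 and 144 CPM. A sub-cluster led by Col9a1 and Dkk4, a Wnt antagonist, with 32 and 86 cells, read 10.9 and 29.4 CPM for Cdkn2a and 37.3 and 74.2 CPM for Cdkn2b. The periderm-like sub-cluster read 9.91 and 12.1 CPM for Cdkn2a and 40.9 and 46.0 CPM for Cdkn2b. A sub-cluster led by Cldn11 and Tagln followed with 6.50 and 9.90 CPM for Cdkn2a and 13.0 and 13.6 CPM for Cdkn2b. The sub-cluster led by Rprml and Gm8797 read 13.6 CPM for Cdkn2a in the Crect lacZ library and had 0 UMIs in the 21 wild-type cells. In the Fgf8 and Shh sub-cluster, 66 and 130 cells, Cdkn2a had 0 UMIs in both libraries. Cdkn1a read 136 and 125 CPM there. High Cdkn1a was thus found both with and without Cdkn2a. Cdkn1a was low in the Gjb6 and Gjb2 sub-cluster, led by genes of connexins (18.4 and 8.19 CPM), and in the Pcp4l1 and Tfap2b sub-cluster (15.3 and 14.2 CPM), and read 12.3 CPM in the 37 Crect lacZ cells of the Dlk1 and Dlx6os1 sub-cluster.

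**Figure D2:**
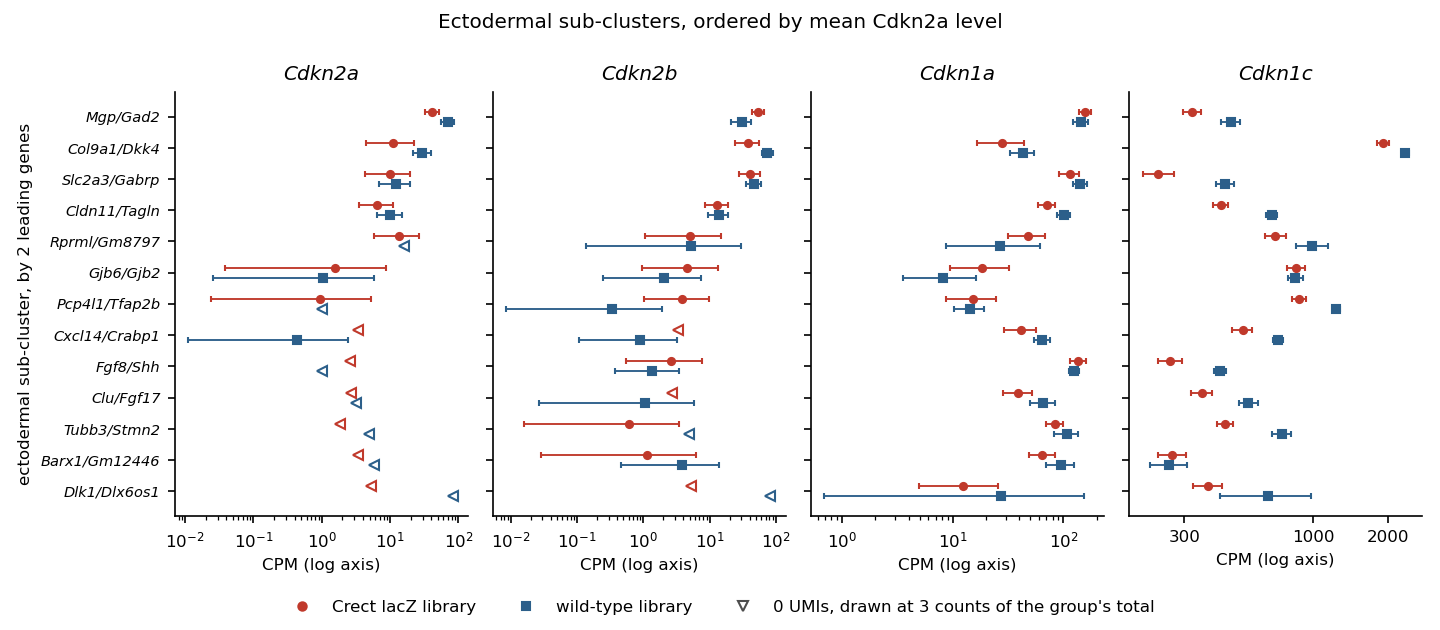
Level (CPM, log axis) of 4 inhibitor genes in the ectodermal sub-clusters and the neuron-like sub-cluster (Tubb3/Stmn2), named by their 2 leading genes and ordered by mean Cdkn2a level, with exact Poisson 95% intervals. Open triangles mark 0 UMIs. The Mgp/Gad2 sub-cluster leads for Cdkn2a with 41.4 and 70.1 CPM, and the Col9a1/Dkk4 sub-cluster for Cdkn1c with 1919 and 2357 CPM.

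Cdkn2a and Cdkn2b were also found in the same cells. Among thinned ectoderm-like cells, 8 of 17 with Cdkn2a and 13 of 28 with Cdkn2a also held a Cdkn2b UMI (47.1% and 46.4%). Among cells without Cdkn2a the share was 3.43% and 4.65%. Over 66 profiles (33 classes and sub-clusters in 2 libraries), Cdkn2b was the gene most like Cdkn2a among 9847 genes, and Cdkn2a the gene most like Cdkn2b (Pearson r = 0.902 of log2(CPM + 1)). The next most like Cdkn2a were Gal (0.729), the neuropeptide galanin, and Ripply3 (0.688), a T-box co-repressor. Proser2 (0.789) and Ppp2r2b (0.774) followed for Cdkn2b. The genes most like Cdkn1a were Ezr (0.925), Ctnnd2 (0.905) and Slc9a3r1 (0.901), where Ezr and Slc9a3r1 encode ezrin and its partner at the apical membrane. Among members the next pairs were Cdkn1a with Cdkn2b (0.641) and with Cdkn2a (0.525). The genes compared were those whose highest level over the profiles was at least 20 CPM. Cdkn2a reached this only in the Mgp/Gad2 and Col9a1/Dkk4 sub-clusters. The profiles share libraries, so these values are descriptions.

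The periderm is the flat outer layer of the embryonic epithelium. It had higher Cdkn2b and lower Cdkn1c than the sum of all other ectoderm-like cells. Cdkn2b read 40.9 and 46.0 CPM in 35 and 63 periderm-like cells, against 14.0 and 12.3 CPM in the other ectoderm-like cells, a 3.27-fold higher level (log2 change 1.71, SE 0.223, edgeR quasi-likelihood adjusted p = 7.33e-13). Cdkn1c read 235 and 438 CPM in periderm-like cells, against 543 and 880 CPM in the other ectoderm-like cells, 2.19-fold lower (log2 change -1.13, SE 0.0965, edgeR adjusted p = 1.27e-29). Periderm and the summed other ectoderm did not overlap for either gene. Single sub-clusters did overlap periderm, so neither level was particular to it. For Cdkn2b these were the Mgp/Gad2 and Col9a1/Dkk4 sub-clusters, and for Cdkn1c those led by Fgf8/Shh and by Barx1. The calls were 1 member higher and 1 lower of 7. Of 12008 genes, 5.85% were called higher, 4.51% lower and 10.4% in either direction. The p threshold alone was passed by 19.1%.

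Cdkn1a, at 114 and 143 CPM in periderm-like cells and 69.7 and 72.4 CPM in the others, passed the edgeR p threshold but not the fold (1.77-fold, adjusted p = 9.46e-08). Cdkn2a differed little (9.91 and 12.1 CPM in periderm-like cells, 9.04 and 9.51 CPM in the others, edgeR adjusted p = 0.745). Of the G1/S genes 0 were higher and 1 was lower, Ccnd1, cyclin D1 (3.86-fold lower). Of 16 p53 targets 2 were higher, Plk2 (3.03-fold) and Perp (2.14-fold), and 1 lower, Phlda3 (3.49-fold). The stress list had 5 of 17 tested genes higher and 2 lower. Hspb1, a small heat shock protein, was 4.87-fold and Gadd45b 4.72-fold higher, and the part of this in the Cdkn2b difference was not tested. The Cdkn1c call was lost without the library block (adjusted p = 0.0777), and with doublets kept the log2 change was -0.70.

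Cdkn1c and Cdkn1b were expressed in nearly all classes. Cdkn1c read 855 and 726 CPM in glia-like cells, 522 and 846 CPM in ectoderm-like cells, and 554 and 641 CPM in mesenchyme-like cells. The order of those 3 classes differed between the libraries. It read 347 and 340 CPM in endothelium-like cells, and was lowest in macrophage-like cells (42.6 and 99 CPM) and erythroid-like cells (45.7 and 49.9 CPM). Within the ectoderm it was highest in the Col9a1/Dkk4 sub-cluster (1919 and 2357 CPM) and among the lowest in a sub-cluster led by Barx1 (268 and 260 CPM). In the Col9a1/Dkk4 sub-cluster 3.13% and 19.8% of cells held both proliferation markers, Mki67 and Top2a, against 35.9% and 54.8% in the Barx1 sub-cluster. The periderm-like sub-cluster, with 235 and 438 CPM of Cdkn1c, had 11.4% and 41.0%. A relation over all sub-clusters was not tested. In the mesenchyme Cdkn1c ranged from 889 and 981 CPM in a sub-cluster led by Slit2 and Scx, a tendon progenitor factor, to 296 and 391 CPM in one led by Cxcl14 and Dlx5. Both markers were held by 32.7% and 42.6% of cells in the Slit2/Scx sub-cluster, against 29.6% and 43.1% of all mesenchyme-like cells. The sub-cluster led by Sox9, with the chondrogenic markers, read 638 and 1139 CPM, but had only 31 cells in the wild-type library.

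Cdkn1b differed little between most classes. It read 15.6 and 22 CPM in mesenchyme-like cells, 15.1 and 20.3 CPM in ectoderm-like cells, and 7.47 and 12.7 CPM in erythroid-like cells. The erythroid CPM is understated because of haemoglobin RNA, and the direction against mesenchyme depends on the scaling, as given below. The highest mesenchymal Cdkn1b levels were in 2 sub-clusters that share the leading genes Rpgrip1 and Notch2, at 35.1 and 61.0 CPM and at 34.6 and 55.2 CPM. Cells of these sub-clusters held 0.512 and 0.535 times the UMIs of mesenchyme-like cells, and the part of depth in these levels was not tested. The genes most like Cdkn1b over the 66 profiles were Supt16 (r = 0.787), Luc7l2 (0.718) and Rpgrip1 (0.702).

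Among the 7 classes compared, Cdkn2c was highest in erythroid-like and macrophage-like cells, and Cdkn2d in erythroid-like cells. The few megakaryocyte-like cells were left out of this order. Cdkn2c read 19.5 and 13.7 CPM in macrophage-like cells. Cdkn2c read 17.6 and 25.8 CPM in erythroid-like cells, against 2.76 and 3.46 CPM in mesenchyme-like cells. Cdkn2d read 70.3 and 64.5 CPM in erythroid-like cells, against 36.1 and 42.8 CPM in mesenchyme-like cells. For neither gene did the erythroid-like and mesenchyme-like levels overlap. In macrophage-like cells Cdkn2d read 46.2 and 37.6 CPM, below glia-like cells (54.6 and 42.7 CPM) and overlapping mesenchyme-like cells. The 6 erythroid markers, haemoglobin genes and Alas2, made up 517790 and 536990 CPM of the erythroid sums, so a CPM level there understates every other gene. These markers leave out Hba-a2 and Hbb-bs, so the full haemoglobin share is larger. With TMM scaling, which allows for this, the edgeR test called Cdkn2c 25.4-fold higher (log2 change 4.67, SE 0.23, adjusted p = 3.87e-88) and Cdkn2d 6.09-fold higher (log2 change 2.61, SE 0.165, adjusted p = 1.06e-53).

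The same edgeR test called Cdkn1a 5.79-fold higher (adjusted p = 2.43e-06) and Cdkn1c 3.48-fold lower (log2 change -1.80, adjusted p = 1.46e-19). That made 3 members higher and 1 lower of 5 tested, and 12.1% of 14314 genes were called higher, 15.7% lower and 27.8% in either direction, with 42.4% past the p threshold alone. Scaling by library totals alone moved the median of all genes by -1.87 on the log2 scale. Relative to totals Cdkn2c stayed called (log2 change 2.80). Cdkn2d then rose less than 2-fold (0.76), Cdkn1a did not pass (0.65, adjusted p = 0.196), and Cdkn1b was at 0.998 with TMM scaling and -0.89 with totals, so these 3 depend on the scaling. Cdkn1a rests on 4 and 26 erythroid UMIs. In the same comparison 8 G1/S genes were higher and 6 lower, with Ccnd3, the D-type cyclin of erythroid cells, 6.52-fold higher, Ccnd1 3.04-fold lower and Cdk4 2.38-fold lower. Of the proliferation lists, 7 of 41 S-phase and 15 of 50 G2/M genes were higher. Over the 66 profiles Epor, the erythropoietin receptor, was among the 3 genes most like Cdkn2d (r = 0.580), after Ube2l6 (0.623) and Neil3 (0.584).

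In endothelium-like cells Cdkn1a was the only member called. It read 7.13 and 5.24 CPM in 118 and 218 endothelium-like cells, against 1.83 and 1.98 CPM in mesenchyme-like cells, 3.65-fold higher (log2 change 1.87, SE 0.297, edgeR adjusted p = 1.48e-09), where 12.5% of 14717 genes were called higher, 16.2% lower and 28.7% in either direction, and 58.7% passed the p threshold alone. The 8 ectoderm markers summed to 27.0 and 21.8 CPM in endothelium-like cells and 39.8 and 31.0 CPM in mesenchyme-like cells, so these markers were not higher there. The 6 macrophage markers summed to 7.999 and 17.5 CPM in endothelium-like cells, against 4.45 and 7.58 CPM in mesenchyme-like cells, and their part in the Cdkn1a difference was not tested. Cdkn1c passed the p threshold but not the fold (log2 change -0.60, edgeR adjusted p = 1.86e-12). Of 16 tested p53 targets 3 were higher, Plk2 (4.14-fold) and Btg2 (4.32-fold) among them, and 2 lower, Pmaip1 (13.9-fold) among them. Of the 20 genes known to act on the Ink4/Arf locus, 2 were higher and 9 lower in endothelium-like cells, in which Cdkn2a had 0 UMIs. Ets1, known in human cells to activate this locus, was 26.9-fold higher. Tbx3 was 12.4-fold, Tbx2 10.5-fold and Id2 8.17-fold lower. The part of these genes was not tested.

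Between maxillary-like and nasal-like mesenchyme 1 of 5 members tested was called. Cdkn1a read 2.34 and 6.71 CPM in maxillary-like cells, against 1.82 and 1.76 CPM in nasal-like cells (2.32-fold, edgeR adjusted p = 0.0141, with 1.93% of 13777 genes called higher, 3.08% lower and 5.01% in either direction, and 14.6% past the p threshold alone). The wild-type maxillary value rests on 17 UMIs. The other 3 values are near the level of all mesenchyme-like cells (1.83 and 1.98 CPM), which is not read as expression. The call was lost with DESeq2 (adjusted p = 0.482), and in the Crect lacZ library alone the log2 change was 0.35.

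Cells were then divided by Mki67, a marker of cycling cells, and Top2a, a topoisomerase made in S, G2 and M phase. After thinning to 5000 UMIs, both were seen in 18.4% and 31.5% of ectoderm-like cells and in 29.6% and 43.1% of mesenchyme-like cells. Neither was seen in 41.6% and 37.0% of ectoderm-like cells and in 29.1% and 21.6% of mesenchyme-like cells. The sums compared below come from the full counts of these cells. G2/M genes checked the division: 47 of 50 were higher in ectoderm-like cells with both markers than in those with neither (median log2 change 2.21), and 42 of 50 in mesenchyme-like cells (1.86). S-phase genes followed only in part, with 10 and 6 of 41 higher.

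In the ectoderm Cdkn2a and Cdkn2b were lower in cells with both markers. Cdkn2a read 4.35 and 7.18 CPM in ectoderm-like cells with both markers, against 15.4 and 14.0 CPM in those with neither, 2.36-fold lower (log2 change -1.24, SE 0.235, edgeR quasi-likelihood adjusted p = 1.55e-05). Cdkn2b read 10.5 and 9.68 CPM in cells with both markers, against 23.5 and 22.9 CPM in those with neither, 2.31-fold lower (log2 change -1.21, SE 0.186, edgeR adjusted p = 8.33e-08). For both genes the groups did not overlap in either library. The opposite was found for Cdkn1b and Cdkn2c. Cdkn1b read 19.9 and 29.6 CPM in cells with both markers, against 8.72 and 11.2 CPM in those with neither, 2.51-fold higher (log2 change 1.33, SE 0.18, edgeR adjusted p = 1.54e-09). Cdkn2c read 2.90 and 3.01 CPM in cells with both markers, against 1.79 and 0.567 CPM in those with neither, 2.72-fold higher (edgeR adjusted p = 0.0467), on 8 and 18 against 8 and 3 UMIs.

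Thus 2 members were higher and 2 lower in ectoderm, where 2.59% of 11614 genes were called higher, 0.99% lower and 3.58% in either direction, and 18.9% passed the p threshold alone. Cdkn2d (1.73-fold higher), Cdkn1c (1.51-fold lower) and Cdkn1a (1.28-fold lower) passed the p threshold but not the fold. With DESeq2 the Cdkn2a and Cdkn2b calls were lost (adjusted p = 0.187 and 0.0653), and without the library block all 4 were (0.0665 to 0.537). Without the Mgp/Gad2 sub-cluster, picked for its Cdkn2a level, the Cdkn2a change was -0.87 (edgeR adjusted p = 0.130). With cells divided by Mki67 alone, none of the 4 was called, and the log2 changes were -0.51 for Cdkn2a, -0.61 for Cdkn2b, 0.60 for Cdkn1b and 0.87 for Cdkn2c. Cells with both markers were deeper (median 21827 and 18762 UMIs) than those with neither (15443.5 and 12822 UMIs).

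In the mesenchyme the same 2 genes and Cdkn2d were higher in cells with both markers. Cdkn2c read 3.76 and 4.26 CPM in mesenchyme-like cells with both markers, against 1.2 and 1.55 CPM in those with neither, 2.96-fold higher (log2 change 1.57, SE 0.215, edgeR adjusted p = 8.11e-09). Cdkn1b read 21.0 and 27.2 CPM in cells with both markers, against 10.3 and 13.4 CPM in those with neither, 2.05-fold higher (log2 change 1.04, SE 0.0776, edgeR adjusted p = 6.75e-19). Cdkn2d read 47.5 and 54.3 CPM in cells with both markers, against 22.3 and 28.6 CPM in those with neither, 2.03-fold higher (log2 change 1.02, SE 0.0555, edgeR adjusted p = 4.46e-26). The groups did not overlap for these 3 of the 5 members tested, where 2.12% of 13802 genes were called higher, 1.01% lower and 3.13% in either direction, and 37.8% passed the p threshold alone. Cdkn1c (531 and 622 CPM with both markers, 596 and 696 CPM with neither, log2 change -0.15) and Cdkn1a (log2 change -0.63) passed the p threshold but not the fold. Mesenchymal Cdkn1a rests on 38 and 81 UMIs with both markers and 58 and 35 with neither, at a level not read as expression.

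Cdkn1b and Cdkn2d stood close to the fold threshold, and under several other divisions of the cells they stayed below 2-fold with a small p (log2 changes of 0.64 to 0.97 and 0.56 to 0.97). With Mki67 alone Cdkn2c was also below 2-fold (0.52). Without the library block none of the 3 passed (adjusted p = 0.0787 to 0.149). Median depth moved with the division, at 20232 and 15527 UMIs in mesenchyme-like cells with both markers and 14655 and 11195 UMIs in those with neither. With counts taken from the thinned cells the edgeR log2 changes were 0.90 for Cdkn1b and 0.75 for Cdkn2d. Whether ectoderm and mesenchyme differed in these changes was tested by an interaction term. For Cdkn2a and Cdkn2b it cannot decide, since their mesenchymal sums hold few UMIs. Cdkn2a had 4 and 7 UMIs in mesenchyme-like cells with both markers and 2 and 1 in those with neither. Cdkn2b had 10 and 3 UMIs with both markers and 7 and 5 with neither. The mesenchymal Cdkn1a level is not read as expression, which limits the term for Cdkn1a too. None of the 7 members was called (edgeR adjusted p = 0.440 to 0.961, with 0.0224% of 13403 genes called higher, 0.0746% lower and 0.097% in either direction, and 0.388% past the p threshold alone). For Cdkn1c the log2 change was -0.41, and -0.54 to -0.20 under the alternative settings, always below 2-fold. Its adjusted p by edgeR or DESeq2 depended on the setting, and the smallest, 6.78e-08, passed the p threshold. Over all genes 758 were higher and 561 lower at an unadjusted p under 0.05, and DESeq2 called 5 genes.

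**Figure D3:**
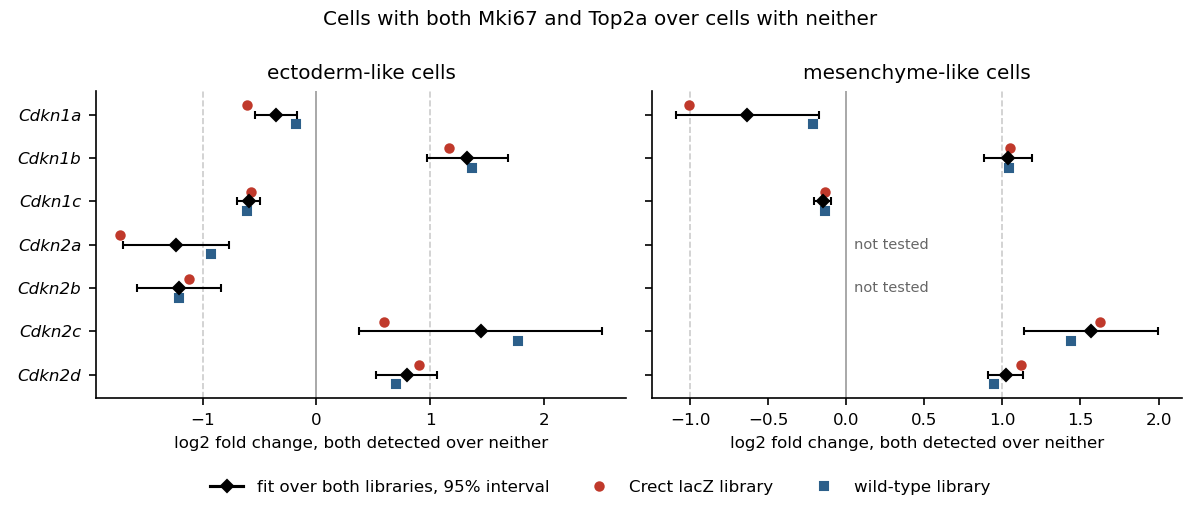
Log2 fold change of each inhibitor gene in cells with both Mki67 and Top2a over cells with neither, in ectoderm-like (left) and mesenchyme-like (right) cells. Diamonds with bars are the edgeR fit with its 95% interval, circles and squares the Crect lacZ and wild-type libraries, and dashed lines a fold of 2. Cdkn1b, Cdkn2c and Cdkn2d lie to the right of 0 in both tissues, and Cdkn2a and Cdkn2b to the left at -1.24 and -1.21 in ectoderm.

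In cells grouped by the sum of Mki67 and Top2a UMIs, Cdkn1b in mesenchyme-like cells read 10.3 and 13.4 CPM at 0 UMIs, 12.7 and 16.9 CPM at 1 to 2, 18.7 and 20.9 CPM at 3 to 5, and 22.7 and 29.4 CPM at 6 or more. Cdkn2d and Cdkn2c climbed in the same way in both libraries from 1 to 2 UMIs upward. In ectoderm-like cells Cdkn2b read 23.5 and 22.9 CPM at 0 UMIs, 13.5 and 15.2 CPM at 1 to 2, 5.88 and 7.34 CPM at 3 to 5, and 15.1 and 10.1 CPM at 6 or more. The lowest Cdkn2b reading was thus at 3 to 5 UMIs in both libraries, but this order was not tested. Ectoderm-like cells with both markers held only 29 and 58 Cdkn2b UMIs.

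**Figure D4:**
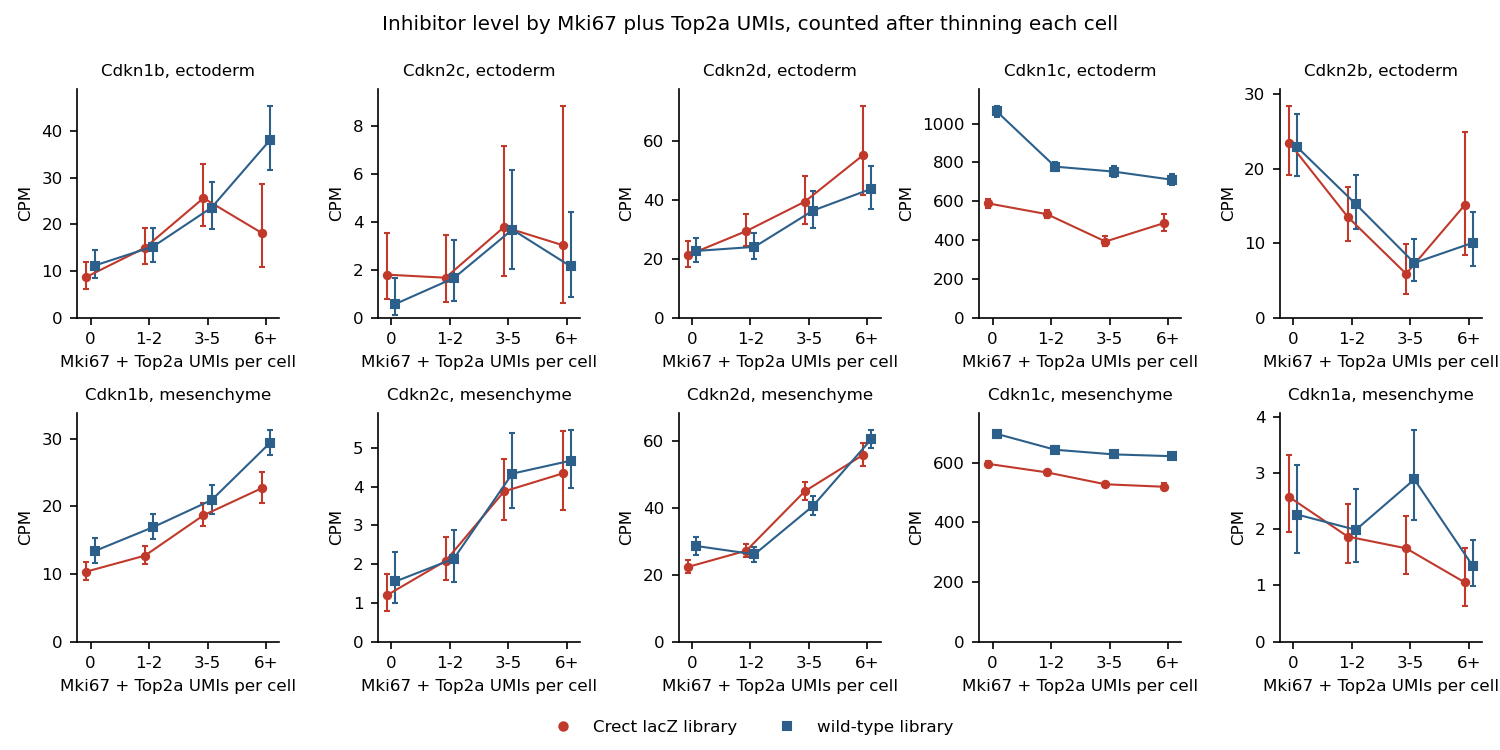
Inhibitor level (CPM) against the Mki67 plus Top2a UMIs of a cell after thinning, in ectoderm-like (top) and mesenchyme-like (bottom) cells, with exact Poisson 95% intervals for each library. Mesenchymal Cdkn1b climbs from 10.3 and 13.4 CPM at 0 UMIs to 22.7 and 29.4 CPM at 6 or more, while ectodermal Cdkn2b is highest at 0 UMIs.

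Gene lists for S and for G2/M phase, each divided at the median of its library and tissue, gave a sharper split than Mki67 and Top2a. In ectoderm-like cells low for both lists, 219 and 300 cells, Cdkn2a read 22.2 and 27.9 CPM and Cdkn2b 33.4 and 40.2 CPM. In the other 3 quadrants Cdkn2a read between 1.81 and 7.81 CPM. Cdkn1c read 715 and 1217 CPM and Cdkn1a 108 and 98.2 CPM in the cells low for both. Cdkn2c went the other way, with 0 and 0.537 CPM in ectoderm-like cells low for both lists. In mesenchyme-like cells Cdkn2c read 3.53 and 4.54 CPM in cells high for both lists, against 0.469 and 0.689 CPM in cells low for both. Mesenchymal Cdkn1b was highest in cells high for G2/M genes only (24.9 and 32.2 CPM), against 9.65 and 13.1 CPM in cells low for both. Where cells without both markers also had to be low in S-phase genes, the ectodermal log2 changes were -1.87 for Cdkn2a (edgeR adjusted p = 6.07e-14) and -1.74 for Cdkn2b (4.35e-18).

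Inside sub-clusters the picture was mixed, and no test was made. The Mgp/Gad2 sub-cluster, picked for its Cdkn2a level, showed the difference. Its 14 and 29 cells with both markers read 27.0 and 36.9 CPM for Cdkn2a, against 96.7 and 143 CPM in its 36 and 24 cells with neither. Cdkn1a read 103 and 81.5 CPM in those with both markers, against 265 and 226 CPM in those with neither. Poisson intervals of the groups did not overlap for either gene, but they cover counting error only and leave out the spread between cells. In the Col9a1/Dkk4 sub-cluster of the wild-type library Cdkn2a read 33.9 CPM in 17 cells with both markers and 36.4 CPM in 44 cells with neither. In the Cldn11/Tagln sub-cluster it read 4.93 and 3.19 CPM in cells with both markers, against 7.34 and 0 CPM in those with neither, on at most 6 UMIs each. In the periderm-like sub-cluster of the wild-type library, Cdkn2b read 44.5 CPM in 25 cells with both markers (29.8 to 63.8) and 64.5 CPM in 18 cells with neither (41.3 to 96.0), which overlap.

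Seen from single cells, inhibitor transcripts and proliferation markers were not exclusive. Both markers were found in 5.88% and 21.4% of thinned ectoderm-like cells with a Cdkn2a UMI, against 18.7% and 31.8% of those without. For Cdkn1b in ectoderm-like cells the shares were 22.6% and 48.3% with it, against 17.9% and 29.8% without. In mesenchyme-like cells they were 40.3% and 53.8% with Cdkn1b, against 28.7% and 42.0% without, and 47.3% and 53.6% with Cdkn2c, against 29.3% and 43.0% without. The Cdkn2a shares rest on 17 and 28 cells, with exact intervals of 0.149% to 28.7% and 8.30% to 41.0%. A cell without a UMI may still hold the transcript at this depth.

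The other lists were described in the same way. Of 24 G1/S genes 2 were higher and 0 lower in ectoderm, and 1 higher and 0 lower in mesenchyme, with median log2 changes of 0.16 in each. Of 16 p53 targets 0 were higher and 1 lower in ectoderm (median -0.11), and 0 higher and 2 lower in mesenchyme (median -0.10), where 0 were higher and 8 lower by the p threshold alone. The ectodermal p53 target was Trp53inp1, 2.18-fold lower in cells with both markers. Of the genes acting on the Ink4/Arf locus 0 of 20 in ectoderm and 0 of 19 in mesenchyme were called by edgeR, while 3 were higher and 1 lower in ectoderm, and 10 higher and 0 lower in mesenchyme, by its p threshold alone. In the stress list Gadd45g, a growth arrest gene, was 2.48-fold lower in ectoderm-like cells with both markers, and 1 stress gene was higher there.

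Between the genotypes no test was possible, since each has 1 library, and the intervals that follow cover counting error only. In ectoderm-like cells the ratio of the Crect lacZ level to the wild-type level was 0.934 for Cdkn1a (Poisson 95% interval 0.857 to 1.02), 0.937 for Cdkn2a (0.730 to 1.2) and 1.06 for Cdkn2b (0.874 to 1.28). These intervals include 1. Cdkn1c had a ratio of 0.617 in ectoderm-like cells (0.599 to 0.636) and 0.865 in mesenchyme-like cells (0.855 to 0.875). The ectodermal sub-clusters richest in Cdkn1c, led by Col9a1/Dkk4 and by Pcp4l1/Tfap2b, had 32 and 68 cells in the Crect lacZ library against 86 and 185 in the wild-type library. Within them Cdkn1c read 1919 and 876 CPM in the Crect lacZ library, against 2357 and 1235 CPM in the wild-type library, and in the Barx1 sub-cluster it read 268 CPM in the Crect lacZ library and 260 CPM in the wild-type library. In the Cldn11/Tagln, Fgf8/Shh and periderm-like sub-clusters it read 421, 263 and 235 CPM in the Crect lacZ library, against 677, 420 and 438 CPM in the wild-type library.

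Cdkn1b had a ratio of 0.712 in mesenchyme-like cells (0.665 to 0.762), Cdkn2c 0.799 (0.674 to 0.946) and Cdkn2d 0.844 (0.805 to 0.884). Mki67 had a ratio of 0.561 and Top2a of 0.663 in the same cells. In ectoderm-like cells, where the ratios were 0.575 for Mki67 and 0.670 for Top2a, Cdkn1b had 0.746 (0.620 to 0.894), Cdkn2c 1.17 (0.677 to 2.01) and Cdkn2d 1.01 (0.884 to 1.16). Genotype, embryo stage within the day, cell handling and sequencing cannot be told apart between 2 libraries.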

How the data were processed

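Single-cell RNA was measured with 10x 3′ libraries from 2 pools of dissected E11.5 mouse tissue. The deposited matrices hold raw UMI counts per gene and cell, made by the authors with Cell Ranger 2.0 on mm10, per the submitters' processing notes. Cells with over 10% of UMIs in mitochondrial genes (207 and 57) or under 500 genes were removed. Scrublet marked 170 wild-type doublets. Its automatic threshold marked only 2 Crect lacZ cells, so the 369 highest scores were removed there. Cells were clustered with scanpy 1.11.5 (2000 variable genes, 30 components, 15 neighbours, Leiden resolution 1.0, and 1.2 with 20 components for sub-clusters). The naming thresholds and the sub-cluster resolution were set after the clusters were seen. Median depths were 17274.5 and 13964 UMIs.

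Counts were summed per library and class and tested with edgeR 4.0.16 (quasi-likelihood, TMM, library as block, 1 residual degree of freedom, 3 for the interaction), with Benjamini-Hochberg adjustment over all genes tested. For the periderm, endothelium, erythroid and maxillary comparisons the spread came from all genes together. DESeq2 1.42.0 and R 4.3.3 served for an alternative. In simulated data, 53 (periderm comparison) to 90 (Mki67 and Top2a in mesenchyme) of 100 changes of 2-fold passed the edgeR p threshold in the right direction. False calls numbered 4 to 11. The simulated spread was set from the fits, so this cannot show whether 2 libraries capture the real spread. Poisson and Clopper-Pearson 95% intervals cover counting error only. From each list the text names at most 3 called genes per direction, by size of change, that averaged at least 20 CPM and moved alike in each library. The 7 genes, the lists and the comparisons were chosen with earlier results of these data known.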

Additional observations from a re-analysis of the deposited data

How the results depend on the processing

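Among 610 alternative values of single members 548 kept their direction and side of the threshold, 12 changed sign, 41 were weaker, 5 stronger and 4 moved. Of the 12, 1 was past the p threshold on either side: erythroid Cdkn1b, 0.998 as reported and -0.89 on library totals. The others were not past it. They were 0.10 (Cdkn1b) and -0.076 (Cdkn1c) for ectoderm in cells with both markers, and -0.14 (Cdkn2c) for maxillary with doublets kept. For the interaction they were Cdkn2c with full counts (0.35), Mki67 alone (0.29), thinned counts (0.47) and cells low in S-phase genes (0.051), Cdkn1b with Mki67 alone (-0.082), Cdkn2d with thinned counts (0.21), and Cdkn1a with Top2a alone (-0.073) and cells low in S-phase genes (-0.091). With 1 library left, 9 untested values also changed sign. Of 84 alternative counts of genes 63 stayed within 1.5 times, as did 69 of 84 counts of members. The class comparisons pair cell groups within a library, by the library block. No paired analysis was possible because, between the genotypes, each has 1 library. Leaving out a library gives a value with no test. Cdkn2c in ectoderm has no adjusted p with DESeq2. The causes were not tested.

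For periderm, with 1244 genes and 2 members called, DESeq2 called 638 genes, the fit without the library block 723 genes and 1 member, and doublets kept gave 1 member. For erythroid cells, with 3980 genes and 4 members called, library totals alone, chosen after seeing the data, gave 10896 genes (465 higher) and 2 members. For maxillary against nasal, with 690 genes and 1 member, DESeq2 gave 375 genes and the fit without the block 234, both with 0 members.

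For Mki67 and Top2a in mesenchyme, with 432 genes and 3 members, DESeq2 gave 250 genes, no block 108 genes and 0 members, and Mki67 alone 111 genes and 0 members. Full counts, Top2a alone, thinned counts and cells low in S-phase genes each left 1 member. In ectoderm, with 416 genes and 4 members, DESeq2 gave 219 genes and 1 member, no block 150 and 0, and Mki67 alone 122 and 0. Top2a alone gave 271 genes, and cells low in S-phase genes 637. Without the Mgp/Gad2 sub-cluster, an alternative chosen after seeing the data, 2 members were called. For the interaction, with 13 genes, DESeq2 gave 5, no filter 48, no block 0, full counts 6, Mki67 alone 0, Top2a alone 2, thinned counts 4 and cells low in S-phase genes 78. Depth limits Cdkn2a, Cdkn2b and Cdkn2c most.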

Other observations

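Cdkn2d was high in the few megakaryocyte-like cells. The 1 such cell of the Crect lacZ library held 9 Cdkn2d UMIs (1442 CPM, Poisson 95% interval 659 to 2737) and the 10 wild-type cells 239 UMIs (650.0 CPM, 570 to 738). The macrophage-like Cdkn1a level rests on 34 and 81 UMIs in 28 and 54 cells.

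In endothelium-like cells Cdkn1c read 495 and 490 CPM without Mki67 or Top2a UMIs, 300 and 374 CPM at 1 to 2, 283 and 285 CPM at 3 to 5, and 114 and 231 CPM at 6 or more, where 3 and 36 cells remained. In erythroid-like cells Cdkn2c read 8.89 and 7.55 CPM, 18.0 and 24.7 CPM, 17.1 and 28.9 CPM, and 76.2 and 46.3 CPM over the same steps. No test was made of either order.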
